A study of Homo sapiens with 9 samples.

Results

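Interferon-stimulated effector genes are the genes through which a cell answers interferon: RNA sensors and nucleases, proteins that bind foreign RNA or coat membranes, the ISG15 modifier with its enzymes, and antiviral GTPases. Members were taken by name from a list of 55 symbols, and all 55 were among the 60649 genes of the table of counts. Of these, 53 passed the filter on low counts that left 14274 genes for testing, and RSAD2 and CMPK2 did not. RNA-seq had been made from MDA-MB-231, a human breast cancer cell line that lacks the estrogen and progesterone receptors, to ask what depletion of the aryl hydrocarbon receptor (AHR) changes. There were 9 libraries in 3 groups of 3. PLKO-GFP cells carried the pLKO-GFP vector, which the paper on these cells calls non-targeting, and served as the control. The shAHR#2 and shAHR#3 cells carried different short hairpin RNAs against AHR in the same lentiviral backbone. Hairpin names here are those of the sample labels, and the paper on these cells numbers its hairpins #1 and #2, so the label shAHR#2 need not be the hairpin of that number there. No added agent is named in the labels. Hairpin cells of this kind are puromycin-selected populations rather than clones, and only this cell line was sequenced. The sources used here do not say what GFP stands for in the control vector. The control may therefore differ from the hairpin cells in more than its lack of an AHR hairpin. Nothing in the sources used here says that the libraries of a group came from separate cultures, so p-values measure only the spread between these samples, which may be technical.

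Type I and type III interferons bind receptors on the cell surface and activate JAK kinases, which phosphorylate STAT proteins. Activated STAT complexes that hold IRF9 bind interferon-stimulated response elements in the promoters of the genes described here. Tumour cells can carry a standing low level of such genes without added interferon, driven by their own DNA and RNA sensors or by STAT proteins that lack phosphate.

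Libraries held 17407688, 19509030 and 19370185 counts in PLKO-GFP, 19112459, 15991396 and 16187573 in shAHR#2 and 19436825, 19559744 and 20374460 in shAHR#3. The targeted gene was measured first, because it checks the labels. AHR (ENSG00000106546.14, chr7:16916359-17346152, + strand, GRCh38 in GENCODE 44) was at 114, 118 and 121 CPM in PLKO-GFP, 42.5, 40.4 and 41.9 CPM in shAHR#2 and 46.3, 52.1 and 44.5 CPM in shAHR#3. Every hairpin library was below every control library. On the log2 scale, with standard errors after the sign ±, AHR changed by -1.50 ± 0.05 in shAHR#2 (adjusted p = 1.05e-25) and -1.31 ± 0.05 in shAHR#3 (adjusted p = 4.95e-24). Residual AHR was slightly higher in shAHR#3 than in shAHR#2, by 0.19 ± 0.05 (adjusted p = 0.00283) on the log2 scale, a call that was lost without shAHR#3 replicate 2 (0.13, at adjusted p = 0.0604). By GENCODE 44, 29.5% of the exon length of AHR is shared with another gene on the same strand and 6.11% with a gene on the opposite strand. Its level is therefore uncertain, by an amount that these shares of length do not give. On principal components the libraries of a group lay close together. By the chi-square per degree of freedom between their counts, however, 1 library stood further from its group in PLKO-GFP and in shAHR#3. PLKO-GFP replicate 2 was at 3.73 and 4.15 from replicates 1 and 3, which were 1.82 apart. In shAHR#3, replicate 3 was at 3.69 and 3.27 from replicates 1 and 2, which were 1.89 apart.

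Members as a list were higher with either hairpin, more so with shAHR#3, but the list did not move as a block. Calls are those of edgeR's quasi-likelihood test at a Benjamini-Hochberg adjusted p under 0.05 over all genes tested. With shAHR#2, 27 of the 53 members tested (50.9%) were higher than in PLKO-GFP, against 32.6% of all genes tested, and 15 (28.3%) were lower, against 33.2%. The share of members called lower with this hairpin was therefore close to the background. With shAHR#3, 33 members (62.3%) were higher, against 26.9% of all genes, and 5 (9.43%) were lower, against 27.5%. The median log2 fold change of the members was 0.18 with shAHR#2 and 0.29 with shAHR#3, where that of all genes tested was -0.0032 and -6.9e-05. These comparisons share the PLKO-GFP libraries, so each is given with its own values below. Counts by family below are to be read beside these shares of all genes, and no family was tested as a set. The list was chosen with earlier results of these data known, so the shares describe it and do not test it.

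Few members passed 2-fold as well as the test. With shAHR#2 these were 6 higher members, OAS1, OAS2, IFI44, IFI44L, SAMD9 and SAMD9L (11.3% against 5.95% of all genes), and 3 lower members, BST2, IFIT5 and HERC5 (5.66% against 5.9%, close to the background). With shAHR#3 they were OAS1, OASL, USP18, SAMD9 and ISG20, all higher (9.43% against 4.32%). None was lower by 2-fold with shAHR#3, where 2.42% of all genes were, since the lowest of the 53 values was -0.70 for IFIT5 by edgeR and -0.70 by DESeq2. Set directly against each other, shAHR#3 had 24 members higher than shAHR#2 (45.3% against 21.9% of all genes) and 8 lower (15.1% against 20.4%). The median there was 0.11 for members and 0.0068 for all genes. Past 2-fold in that comparison were OAS1, IFIT1, MX2 and BST2 on the higher side (7.55% against 2.68%) and IFI44L on the lower (1.89% against 1.04%).

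**Figure D1:**
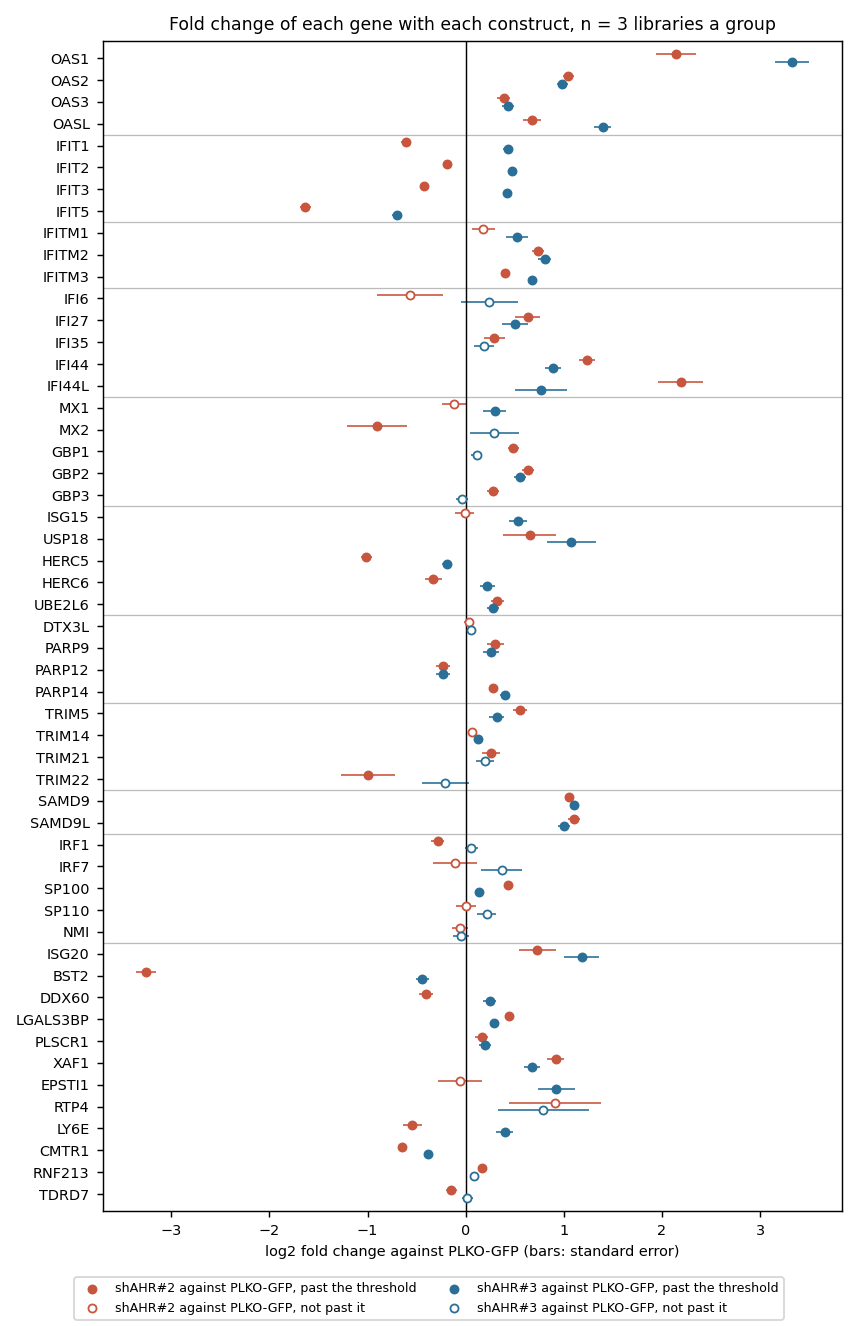
Log2 fold change of each of the 53 members tested against PLKO-GFP (horizontal axis), in red for shAHR#2 and blue for shAHR#3, with members on the vertical axis grouped by family and bars giving the standard error (n = 3 libraries a group; filled points passed the test). OAS genes and SAMD9 and SAMD9L lie to the right for both hairpins, the IFIT genes lie on either side of 0, and BST2 lies at -3.26 with shAHR#2 and -0.44 with shAHR#3.

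Summed over all 55 members, the normalised level was 1966, 1967 and 1962 CPM (counts per 1000000 after TMM scaling) in the PLKO-GFP libraries, 2171, 2219 and 2176 CPM in shAHR#2 and 2379.7, 2419.8 and 2390.3 CPM in shAHR#3. The groups did not overlap and the order was control, shAHR#2, shAHR#3. LGALS3BP alone made up 313, 325 and 321 CPM of the control sums, so the sum follows a few abundant members and says little of the scarce ones. In bulk RNA, fewer cells that carry a transcript and less of it in each cell cannot be told apart.

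Promoter windows were read for response elements, and no sequence was used to choose the members. The interferon-stimulated response element belongs to promoters of such genes, so a high share of it describes the list and not the hairpins. RefSeq windows of 300 bases (GRCh38.p14, from 250 before to 50 after a start site) were present for 45 of the 55 members, with 59 windows in all, and not for OAS2, OASL, IFIT2, IFITM2, MX2, GBP2, IRF7, USP18, TRIM22 and LY6E. Windows of PARP9 and DTX3L overlap each other, as do those of RSAD2 and CMPK2, and CMPK2, IFI27, IFI44, PLSCR1 and UBE2L6 each have windows that overlap among themselves. The core of the interferon-stimulated response element was searched on both strands as GAAA, any 2 bases and GAAA again. It was in a window of 32 of the 45 members (71.1%), against 4.38% of all 27305 genes with a window and 3.78% of the 10482 other tested genes with a window. A STAT-type GAS element, searched as TTC, any 3 bases and GAA, was found for 14 members (31.1%), against 9.38% of all genes with a window and 8.57% of other tested genes. It can overlap the response element core, since both can use the letters GAA. The xenobiotic response element core GCGTG, which AHR with its partner ARNT can bind, was found for 13 members (28.9%), against 40.6% of all genes with a window and 58.2% of other tested genes.

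Members with and without the response element core were found among all calls. With shAHR#2 it was present for 15 of 22 higher members with a window, 7 of 11 lower members and 9 of 10 that were not called. With shAHR#3 the corresponding counts were 20 of 26, 4 of 5 and 7 of 12. GCGTG was present for 5 of the 22 higher and 5 of the 11 lower members with shAHR#2, and for 7 of the 26 higher and 2 of the 5 lower members with shAHR#3. A match describes letters in a window and is not a measured binding site.

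The oligoadenylate synthetases, which sense viral RNA and make oligoadenylates from ATP, were higher in 4 of 4 members with each hairpin (median log2 fold change 0.86 with shAHR#2 and 1.19 with shAHR#3). OAS1 (ENSG00000089127.15, chr12:112905856-112933219, + strand) was at 0.791, 1.25 and 0.962 CPM in PLKO-GFP, 4.93, 4.30 and 4.11 CPM in shAHR#2 and 10.0, 10.3 and 10.1 CPM in shAHR#3, from 14, 25 and 19 reads in the control libraries. Each shAHR#2 library was above each control and each shAHR#3 library was above each shAHR#2 library. The log2 fold changes of OAS1 were 2.14 ± 0.20 in shAHR#2 (adjusted p = 7.67e-12) and 3.32 ± 0.17 in shAHR#3 (adjusted p = 6.71e-19), and the difference between the hairpins was 1.18 ± 0.13 (adjusted p = 1.45e-09). OASL, a relative without synthetase activity that aids RNA sensing by RIG-I, followed the same order, with 12.6, 14.98 and 11.6 CPM in PLKO-GFP, 19.5, 23.6 and 19.5 in shAHR#2 and 33.5, 36.0 and 33.7 in shAHR#3 and log2 fold changes of 0.67 and 1.39. OAS2 and OAS3 rose by similar amounts with the hairpins (1.04 and 0.98 for OAS2, 0.39 and 0.43 for OAS3), and for these the direct comparison did not pass the test (-0.06, adjusted p = 0.372, and 0.04, adjusted p = 0.634). The promoter window of OAS1, the member with the largest rise (RefSeq, GRCh38.p14, chr12:112906712-112907011, + strand), holds no response element core in the form searched. It does hold gaaacgaaa, left in lower case, where the GAAA stretches stand closer together than the search allowed. The search therefore does not show that the window lacks a response element. A GAS match at -168 bases from the start is shown in capitals.
OAS1: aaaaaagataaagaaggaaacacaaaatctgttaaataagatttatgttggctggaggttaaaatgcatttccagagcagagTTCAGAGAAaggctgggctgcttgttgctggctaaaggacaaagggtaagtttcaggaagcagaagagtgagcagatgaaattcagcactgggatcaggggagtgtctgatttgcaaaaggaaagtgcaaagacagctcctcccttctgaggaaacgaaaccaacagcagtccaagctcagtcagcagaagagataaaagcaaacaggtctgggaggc

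IFIT proteins bind foreign RNA and block its translation, and by median this family differed most between the hairpins. With shAHR#2 all 4 members fell (median -0.52), and with shAHR#3 IFIT1, IFIT2 and IFIT3 rose and IFIT5 fell (median 0.42). IFIT1, which binds RNA whose cap lacks ribose methylation, was at 67.3, 65.7 and 67.3 CPM in PLKO-GFP, 47.0, 40.01 and 44.2 CPM in shAHR#2 and 88.7, 95.5 and 85.1 CPM in shAHR#3. Its shAHR#2 libraries were all below the controls and its shAHR#3 libraries all above them. IFIT1 changed by -0.61 ± 0.05 in shAHR#2 (adjusted p = 7.11e-13) and 0.43 ± 0.05 in shAHR#3 (adjusted p = 5.37e-10), and the direct difference was 1.03 ± 0.05 (adjusted p = 2.41e-19). IFIT2 had 57.0, 58.5 and 59.1 CPM in PLKO-GFP, 50.2, 52.6 and 50.5 in shAHR#2 and 81.5, 78.9 and 81.4 in shAHR#3, again with no overlap of groups. IFIT2 changed by -0.19 ± 0.05 in shAHR#2 (adjusted p = 3.72e-04) and 0.47 ± 0.04 in shAHR#3 (adjusted p = 3.31e-12). IFIT3, which stabilises IFIT1 on RNA, had -0.42 and 0.42, and its groups did not overlap.

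IFIT5 (ENSG00000152778.10, chr10:89414568-89421605, + strand), which binds RNA ends that carry a triphosphate, fell with each hairpin. It was at 61.8, 66.9 and 64.8 CPM in PLKO-GFP, 21.0, 21.5 and 19.8 CPM in shAHR#2 and 39.4, 40.6 and 39.1 CPM in shAHR#3. Here the shAHR#3 libraries lay between the controls and shAHR#2, and the groups were separate. IFIT5 changed by -1.63 ± 0.06 in shAHR#2 (adjusted p = 1.92e-24) and -0.70 ± 0.05 in shAHR#3 (adjusted p = 1.21e-14), and the direct difference was 0.93 ± 0.06 (adjusted p = 1.20e-15). IFIT1 and IFIT5 are shown because they are neighbours on chromosome 10 that moved apart with shAHR#3, and because their windows carry the same kind of match. The IFIT1 window (RefSeq, GRCh38.p14, chr10:89392373-89392672, + strand) has response element cores that begin at -116 and -103 bases from the start, and the IFIT5 window (RefSeq, GRCh38.p14, chr10:89414318-89414617, + strand) has them at -45, -19 and -4 bases, all on the strand opposite the gene and given in capitals.
IFIT1: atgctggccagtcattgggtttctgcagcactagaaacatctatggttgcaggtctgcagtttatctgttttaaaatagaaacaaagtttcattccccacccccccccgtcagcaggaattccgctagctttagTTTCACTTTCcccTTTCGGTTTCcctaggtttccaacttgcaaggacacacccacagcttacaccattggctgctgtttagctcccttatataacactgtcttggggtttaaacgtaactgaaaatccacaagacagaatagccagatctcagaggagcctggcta
IFIT5: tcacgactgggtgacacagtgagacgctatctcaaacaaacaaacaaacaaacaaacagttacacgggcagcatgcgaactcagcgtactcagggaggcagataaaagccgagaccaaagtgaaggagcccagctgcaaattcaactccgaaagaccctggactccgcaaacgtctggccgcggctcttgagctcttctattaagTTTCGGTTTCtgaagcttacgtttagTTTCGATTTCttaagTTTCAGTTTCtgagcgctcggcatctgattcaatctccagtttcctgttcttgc

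The IFITM proteins sit in membranes and hinder the fusion of enveloped viruses. With shAHR#2 2 of 3 members rose and with shAHR#3 3 of 3 (medians 0.40 and 0.67). IFITM2 was at 22.2, 22.8 and 23.8 CPM in PLKO-GFP, 36.8, 41.6 and 36.4 CPM in shAHR#2 and 38.4, 41.1 and 40.6 CPM in shAHR#3, so that every hairpin library lay above every control. IFITM2 changed by 0.74 ± 0.07 in shAHR#2 (adjusted p = 1.74e-12) and 0.80 ± 0.06 in shAHR#3 (adjusted p = 1.63e-13). IFITM3, the most abundant of them, rose by 0.40 and 0.67, and more with shAHR#3 (0.27 directly, adjusted p = 5.49e-08). IFITM1 was 0.18 with shAHR#2 (adjusted p = 0.185, not called) and rose by 0.52 with shAHR#3, and its direct difference of 0.35 (adjusted p = 0.0104) was lost without shAHR#2 replicate 2 (0.28, at adjusted p = 0.0670). The genes of this family are close copies of one another, so the split of reads among them depends on how the authors' counting treated reads that fit more than 1 place.

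Among the members named IFI, 4 of 5 rose with shAHR#2 and 3 of 5 with shAHR#3 (medians 0.63 and 0.50). In the direct test IFI44 and IFI44L were lower with shAHR#3, IFI6 was higher, and IFI27 and IFI35 were not called. IFI44L (ENSG00000137959.17, chr1:78619902-78646145, + strand), a cytoplasmic relative of IFI44, was at 1.30, 1.10 and 0.962 CPM in PLKO-GFP, 5.202, 4.82 and 5.31 CPM in shAHR#2 and 1.90, 2.61 and 1.22 CPM in shAHR#3, from 23, 22 and 19, 97, 75 and 84 and 37, 51 and 25 reads. The shAHR#2 libraries were all above the rest, while shAHR#3 replicate 3 lay within the control range. Its log2 fold changes were 2.19 ± 0.23 in shAHR#2 (adjusted p = 1.11e-10) and 0.77 ± 0.26 in shAHR#3 (adjusted p = 0.0133), with -1.42 ± 0.21 (adjusted p = 3.87e-07) for shAHR#3 against shAHR#2. The shAHR#3 call was lost without PLKO-GFP replicate 3 or shAHR#3 replicate 2 (0.67 and 0.48, at adjusted p = 0.0586 and 0.172). IFI44 was at 14.6, 13.3 and 13.6 CPM in PLKO-GFP, 33.2, 29.9 and 34.5 CPM in shAHR#2 and 26.8, 23.0 and 26.9 CPM in shAHR#3, with both hairpin groups above the controls. IFI44 changed by 1.24 ± 0.08 in shAHR#2 (adjusted p = 2.01e-16) and 0.89 ± 0.08 in shAHR#3 (adjusted p = 6.00e-12). Its direct difference was -0.35 ± 0.07 (adjusted p = 1.23e-04), lower with shAHR#3.

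The IFI44L window (RefSeq, GRCh38.p14, chr1:78620198-78620497, + strand) has 2 response element cores, in copies of a repeated stretch, at -164 and -73 bases from the start (capitals). It is shown as that of the member with the largest rise with shAHR#2.
IFI44L: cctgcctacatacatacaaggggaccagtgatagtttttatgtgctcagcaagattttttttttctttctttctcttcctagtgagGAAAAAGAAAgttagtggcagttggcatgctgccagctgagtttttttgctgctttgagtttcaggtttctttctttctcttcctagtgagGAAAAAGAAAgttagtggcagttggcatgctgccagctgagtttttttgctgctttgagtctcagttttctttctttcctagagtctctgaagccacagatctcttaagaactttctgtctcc

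IFI27, a small mitochondrial protein, rose with each hairpin (0.63 and 0.50), and IFI35, a partner of NMI, rose with shAHR#2 (0.29) and was 0.19 with shAHR#3 (adjusted p = 0.122, not called). The shAHR#2 call of IFI35 was lost without shAHR#2 replicate 2 (0.26, at adjusted p = 0.0567). IFI6 had few reads (22, 24 and 26 in PLKO-GFP, 8, 19 and 15 in shAHR#2, 34, 27 and 27 in shAHR#3) and was called with neither hairpin (-0.56 and 0.24), although without shAHR#2 replicate 2 it was called lower with shAHR#2 (-0.89, adjusted p = 0.0440). Its direct difference of 0.80 (adjusted p = 0.0444) was lost without shAHR#2 replicate 1, shAHR#2 replicate 3, shAHR#3 replicate 1 or shAHR#3 replicate 2 (0.44, 0.88, 0.67 and 0.85, at adjusted p = 0.316, 0.0575, 0.153 and 0.0581). It was also lost with DESeq2, at 0.79 (adjusted p = 0.0929), and in a fit of only the 2 groups compared, at 0.80 (adjusted p = 0.0523).

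ISG15 is a ubiquitin-like protein that is joined to newly made proteins by UBE2L6 and HERC5 and removed by USP18, which also dampens the interferon receptor. With shAHR#2 2 of these 5 members rose and 2 fell, and with shAHR#3 4 rose and 1 fell (medians -0.01 and 0.28). ISG15 itself was at 12.1, 14.1 and 11.4 CPM in PLKO-GFP, 12.2, 12.7 and 12.5 CPM in shAHR#2 and 19.1, 16.3 and 19.1 CPM in shAHR#3. The shAHR#2 libraries lay within the control range and the shAHR#3 libraries above it. ISG15 changed by -0.01 ± 0.10 in shAHR#2 (adjusted p = 0.916) and 0.53 ± 0.09 in shAHR#3 (adjusted p = 3.98e-06), and the direct difference was 0.54 ± 0.09 (adjusted p = 6.31e-06). HERC5, the ligase, was at 51.3, 57.4 and 52.8 CPM in PLKO-GFP, 26.0, 26.6 and 27.5 CPM in shAHR#2 and 46.1, 47.4 and 48.1 CPM in shAHR#3, where shAHR#2 lay far below the controls and shAHR#3 just below them. HERC5 changed by -1.02 ± 0.06 in shAHR#2 (adjusted p = 4.12e-18) and -0.19 ± 0.05 in shAHR#3 (adjusted p = 0.00182). USP18 had 18, 25 and 22 reads in PLKO-GFP, 35, 24 and 30 in shAHR#2 and 53, 51 and 38 in shAHR#3, or 1.02, 1.25 and 1.11 CPM in PLKO-GFP, 1.88, 1.54 and 1.90 CPM in shAHR#2 and 2.73, 2.61 and 1.86 CPM in shAHR#3. Its hairpin libraries were above the controls. USP18 changed by 0.65 ± 0.27 in shAHR#2 (adjusted p = 0.0324) and 1.08 ± 0.25 in shAHR#3 (adjusted p = 3.32e-04).

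The shAHR#2 call of USP18 was lost without PLKO-GFP replicate 1, PLKO-GFP replicate 3, shAHR#2 replicate 1 or shAHR#2 replicate 3 (0.59, 0.64, 0.61 and 0.61, at adjusted p = 0.0880, 0.0682, 0.0872 and 0.0797), and with DESeq2, at 0.66 (adjusted p = 0.0637). UBE2L6 rose by 0.32 and 0.28. HERC6, a relative of HERC5 with no settled ISG15 ligase role in human cells, fell with shAHR#2 (-0.33) and rose with shAHR#3 (0.22). That rise was lost without PLKO-GFP replicate 1 or PLKO-GFP replicate 2 (0.18 and 0.18, at adjusted p = 0.0758 and 0.0783).

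**Figure D2:**
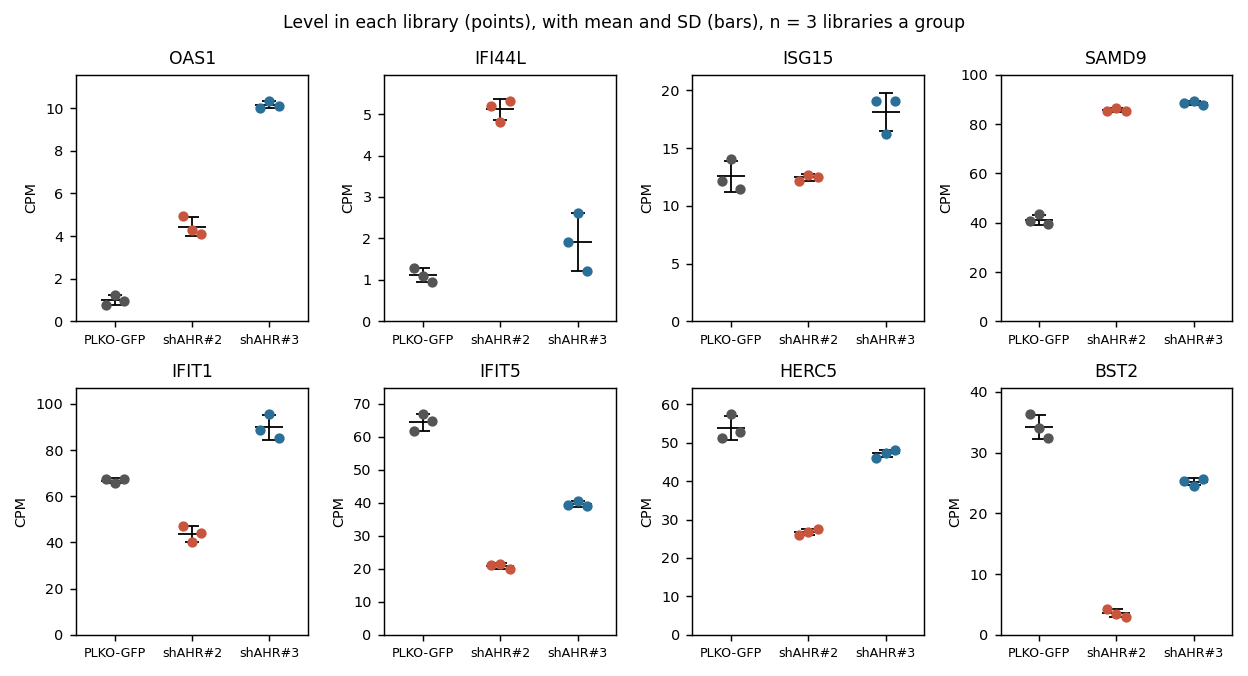
Level of 8 members in each library in CPM (vertical axes, from 0), for PLKO-GFP in grey, shAHR#2 in red and shAHR#3 in blue, with horizontal bars for the mean and whiskers for the SD (n = 3 libraries a group). OAS1 climbs from a mean of 1.000 CPM to 4.45 and 10.16, BST2 drops to 3.54 CPM in shAHR#2 only, and IFIT1 lies on opposite sides of the control in the hairpin groups.

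The antiviral GTPases are dynamin-like proteins (MX1, MX2) and guanylate-binding proteins (GBP1, GBP2, GBP3) that assemble on viral particles or on pathogen membranes. Of the 5, 3 rose and 1 fell with shAHR#2, and 2 rose with shAHR#3 (medians 0.28 and 0.29). GBP2 was at 24.8, 24.6 and 27.0 CPM in PLKO-GFP, 38.4, 39.7 and 40.9 CPM in shAHR#2 and 37.2, 38.7 and 36.3 CPM in shAHR#3, above the controls in every hairpin library. GBP2 changed by 0.64 ± 0.06 in shAHR#2 (adjusted p = 1.62e-11) and 0.55 ± 0.06 in shAHR#3 (adjusted p = 6.89e-10). GBP1 was at 38.3, 35.6 and 37.6 CPM in PLKO-GFP, 54.9, 50.2 and 50.7 CPM in shAHR#2 and 39.1, 41.1 and 40.04 CPM in shAHR#3, raised in shAHR#2 and just above the controls in shAHR#3. GBP1 changed by 0.49 ± 0.05 in shAHR#2 (adjusted p = 5.17e-10) and 0.11 ± 0.05 in shAHR#3 (adjusted p = 0.0836). GBP3 was at 44.3, 41.5 and 39.8 CPM in PLKO-GFP, 56.1, 48.7 and 47.1 CPM in shAHR#2 and 43.2, 40.9 and 37.9 CPM in shAHR#3, again above the controls in shAHR#2 and overlapping them in shAHR#3. GBP3 changed by 0.28 ± 0.06 in shAHR#2 (adjusted p = 1.20e-04) and -0.04 ± 0.06 in shAHR#3 (adjusted p = 0.602). In the direct comparison GBP1 and GBP3 were lower with shAHR#3 (-0.37 and -0.32, adjusted p = 2.82e-07 and 3.77e-05).

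MX2, which blocks nuclear entry of retroviral DNA, went the other way on few reads (29, 40 and 24 in PLKO-GFP, 15, 17 and 11 in shAHR#2, 35, 33 and 50 in shAHR#3). Its levels were 1.64, 2.00 and 1.22 CPM in PLKO-GFP, 0.804, 1.09 and 0.696 CPM in shAHR#2 and 1.80, 1.69 and 2.44 CPM in shAHR#3, so that only the shAHR#2 libraries were below all controls. MX2 changed by -0.91 ± 0.31 in shAHR#2 (adjusted p = 0.00954) and 0.29 ± 0.25 in shAHR#3 (adjusted p = 0.344), and by 1.20 ± 0.29 (adjusted p = 9.94e-04) between the hairpins. The shAHR#2 call was lost without PLKO-GFP replicate 2 (-0.72, at adjusted p = 0.0684). MX1 was -0.12 with shAHR#2 (adjusted p = 0.409, not called) and rose by 0.29 with shAHR#3 (adjusted p = 0.0290). That call was lost without PLKO-GFP replicate 2, PLKO-GFP replicate 3 or shAHR#3 replicate 2 (0.21, 0.29 and 0.26, at adjusted p = 0.167, 0.0684 and 0.0912) and with DESeq2, at 0.29 (adjusted p = 0.0798).

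The ADP-ribosyltransferases of the list and DTX3L, the ubiquitin ligase that partners PARP9, moved little. With each hairpin 2 of the 4 rose and 1 fell (medians 0.16 and 0.15). PARP14 was at 54.8, 53.3 and 54.2 CPM in PLKO-GFP, 63.5, 66.0 and 67.8 CPM in shAHR#2 and 70.8, 72.6 and 70.2 CPM in shAHR#3, above the controls in every hairpin library. PARP14 changed by 0.28 ± 0.04 in shAHR#2 (adjusted p = 7.95e-07) and 0.40 ± 0.04 in shAHR#3 (adjusted p = 4.94e-10). PARP12 was at 24.0, 26.1 and 27.1 CPM in PLKO-GFP, 22.6, 21.4 and 21.4 CPM in shAHR#2 and 21.6, 21.7 and 22.5 CPM in shAHR#3, below the controls in every hairpin library. PARP12 changed by -0.24 ± 0.07 in shAHR#2 (adjusted p = 0.00392) and -0.23 ± 0.07 in shAHR#3 (adjusted p = 0.00438). PARP9 rose by 0.30 and 0.25, the latter lost without PLKO-GFP replicate 1 (0.21, at adjusted p = 0.0502), and DTX3L was 0.03 and 0.05 (adjusted p = 0.570 and 0.305). Between the hairpins only PARP14 differed (0.11, adjusted p = 0.0272), a call lost without shAHR#2 replicate 1, shAHR#2 replicate 2 or shAHR#3 replicate 2 (0.08, 0.11 and 0.10, at adjusted p = 0.206, 0.0744 and 0.0939) and with DESeq2, at 0.11 (adjusted p = 0.0842).

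The TRIM proteins are ubiquitin ligases or adaptors that recognise viral parts, and 2 of 4 rose with each hairpin (medians 0.16 and 0.16). TRIM5, which binds retroviral capsids, was at 21.4, 23.4 and 19.1 CPM in PLKO-GFP, 32.5, 31.7 and 29.4 CPM in shAHR#2 and 27.3, 24.8 and 27.4 CPM in shAHR#3, above the controls in every hairpin library. TRIM5 changed by 0.55 ± 0.07 in shAHR#2 (adjusted p = 3.32e-08) and 0.32 ± 0.07 in shAHR#3 (adjusted p = 4.15e-04). TRIM22 had few reads (29, 37 and 47 in PLKO-GFP, 18, 16 and 15 in shAHR#2 and 31, 34 and 36 in shAHR#3) and levels of 1.64, 1.85 and 2.38 CPM in PLKO-GFP, 0.965, 1.03 and 0.949 CPM in shAHR#2 and 1.59, 1.74 and 1.76 CPM in shAHR#3. It was below the controls in every shAHR#2 library and overlapped them in shAHR#3. TRIM22 changed by -0.997 ± 0.27 in shAHR#2 (adjusted p = 0.00159) and -0.21 ± 0.24 in shAHR#3 (adjusted p = 0.480). Its direct difference of 0.79 (adjusted p = 0.0198) was lost without shAHR#2 replicate 1, shAHR#2 replicate 3 or shAHR#3 replicate 3 (0.77, 0.76 and 0.76, at adjusted p = 0.0587, 0.0528 and 0.0519) and with DESeq2, at 0.79 (adjusted p = 0.0519). TRIM21, the cytosolic antibody receptor, rose by 0.26 with shAHR#2 although its groups overlapped, and that call was lost without PLKO-GFP replicate 2 or shAHR#2 replicate 3 (0.22 and 0.17, at adjusted p = 0.0628 and 0.155). With shAHR#3 it was 0.20 (adjusted p = 0.0681, not called). TRIM14, an adaptor of RNA sensing, was 0.06 with shAHR#2 (not called) and rose by 0.12 with shAHR#3, a call lost without PLKO-GFP replicate 3 or shAHR#3 replicate 2 (0.10 and 0.09, at adjusted p = 0.0569 and 0.0861).

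SAMD9 and SAMD9L, adjacent genes on chromosome 7 whose products restrict poxviruses and repress translation, rose about equally with the hairpins (2 of 2 with each). SAMD9 (ENSG00000205413.8, chr7:93099513-93118023, - strand) was at 40.7, 43.4 and 39.4 CPM in PLKO-GFP, 85.4, 86.6 and 85.1 CPM in shAHR#2 and 88.7, 89.3 and 87.7 CPM in shAHR#3. Hairpin libraries were all far above the range of the controls. SAMD9 changed by 1.06 ± 0.04 in shAHR#2 (adjusted p = 4.50e-22) and 1.10 ± 0.04 in shAHR#3 (adjusted p = 1.67e-22). SAMD9L had 22.4, 23.6 and 21.0 CPM in PLKO-GFP, 48.7, 45.5 and 49.5 in shAHR#2 and 43.5, 46.8 and 43.8 in shAHR#3. SAMD9L changed by 1.10 ± 0.06 in shAHR#2 (adjusted p = 3.46e-18) and 0.999 ± 0.06 in shAHR#3 (adjusted p = 1.05e-16). Neither passed the direct test (0.05 and -0.10, adjusted p = 0.357 and 0.148). The SAMD9 window (RefSeq, GRCh38.p14, chr7:93117930-93118229, - strand) is shown as that of a member with the same change in each comparison with PLKO-GFP. It has a response element core at -136 bases from the start, in capitals, and GCGTG on the opposite strand at -84 bases, left in lower case, and the SAMD9L window has neither.
SAMD9: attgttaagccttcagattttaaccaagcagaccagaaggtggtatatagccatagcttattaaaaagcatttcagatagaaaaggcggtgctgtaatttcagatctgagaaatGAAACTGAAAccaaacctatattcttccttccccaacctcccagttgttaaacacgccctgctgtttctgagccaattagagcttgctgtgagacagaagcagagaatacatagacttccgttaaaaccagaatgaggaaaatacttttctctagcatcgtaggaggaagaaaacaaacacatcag

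Of the 5 transcription factors and nuclear body proteins, 1 was higher and 1 lower with shAHR#2, and 1 was higher with shAHR#3 (medians -0.06 and 0.14). Of all genes tested, 32.6% were higher and 33.2% lower with shAHR#2, and 26.9% higher and 27.5% lower with shAHR#3. Counts in so small a family say little beside these shares. SP100, a component of PML nuclear bodies, was at 63.0, 61.7 and 60.3 CPM in PLKO-GFP, 84.8, 79.9 and 85.2 CPM in shAHR#2 and 69.5, 67.2 and 66.6 CPM in shAHR#3, with both hairpin groups above the controls. SP100 changed by 0.43 ± 0.04 in shAHR#2 (adjusted p = 1.76e-11) and 0.14 ± 0.04 in shAHR#3 (adjusted p = 0.00626). IRF1, a transcription factor that drives many of these genes, was at 29.9, 35.2 and 32.004 CPM in PLKO-GFP, 25.2, 28.2 and 26.4 CPM in shAHR#2 and 31.7, 33.7 and 35.7 CPM in shAHR#3, below the controls in shAHR#2 and overlapping them in shAHR#3. IRF1 changed by -0.29 ± 0.07 in shAHR#2 (adjusted p = 4.32e-04) and 0.06 ± 0.07 in shAHR#3 (adjusted p = 0.473). IRF7, which amplifies interferon transcription, was -0.11 and 0.37, SP110 0.0033 and 0.21, and NMI, which binds STATs and IFI35, -0.06 and -0.05, none of them called. With a library left out, IRF7 was called higher with shAHR#3 without shAHR#3 replicate 2 (0.57, at adjusted p = 0.0239) and against shAHR#2 without shAHR#3 replicate 2 (0.68, at adjusted p = 0.0122). Likewise SP110 was called higher with shAHR#3 without shAHR#3 replicate 1 (0.28, at adjusted p = 0.0249) and against shAHR#2 without shAHR#2 replicate 2 or shAHR#3 replicate 1 (0.31 and 0.28, at adjusted p = 0.0232 and 0.0396).

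BST2 (tetherin; ENSG00000130303.14, chr19:17402939-17405630, - strand), a membrane protein that holds budding virus on the cell, showed the largest difference between the hairpins of all members. It was at 36.3, 34.0 and 32.5 CPM in PLKO-GFP, 4.24, 3.40 and 2.97 CPM in shAHR#2 and 25.3, 24.6 and 25.7 CPM in shAHR#3, from 643, 681 and 641, 79, 53 and 47 and 491, 480 and 527 reads. All shAHR#2 libraries lay far below the rest, and the shAHR#3 libraries lay just below the controls. The log2 fold changes were -3.26 ± 0.10 in shAHR#2 (adjusted p = 4.18e-26) and -0.44 ± 0.07 in shAHR#3 (adjusted p = 1.17e-06), a 9.56-fold and a 1.36-fold fall, and the direct difference was 2.81 ± 0.11 (adjusted p = 1.06e-22). None of the 50 other tested genes within 1 Mb changed as far with shAHR#2, and their medians were 0.18 and 0.15. The window is shown because of that fall (RefSeq, GRCh38.p14, chr19:17405581-17405880, - strand). It has overlapping response element cores that begin at -130 and -124 bases from the start, with GAS matches at -136 and -58 bases, the former running into the cores, all in capitals.
BST2: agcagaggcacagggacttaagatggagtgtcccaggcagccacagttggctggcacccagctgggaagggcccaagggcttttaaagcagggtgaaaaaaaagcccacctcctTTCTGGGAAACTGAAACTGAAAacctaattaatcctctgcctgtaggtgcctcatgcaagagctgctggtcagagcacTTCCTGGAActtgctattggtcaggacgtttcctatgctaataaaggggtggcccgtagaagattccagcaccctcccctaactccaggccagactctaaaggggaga

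The remaining effectors were split, with 5 of 12 tested higher and 5 lower with shAHR#2 and 7 higher and 2 lower with shAHR#3, BST2 included (medians 0.05 and 0.26). ISG20, an exonuclease, was at 1.92, 2.80 and 2.03 CPM in PLKO-GFP, 3.22, 4.37 and 3.73 CPM in shAHR#2 and 5.56, 5.01 and 4.83 CPM in shAHR#3, above the controls in every hairpin library. ISG20 changed by 0.73 ± 0.19 in shAHR#2 (adjusted p = 0.00106) and 1.18 ± 0.18 in shAHR#3 (adjusted p = 4.26e-07). Its direct difference of 0.45 (adjusted p = 0.0246) was lost without shAHR#2 replicate 1, shAHR#2 replicate 3 or shAHR#3 replicate 1 (0.33, 0.44 and 0.39, at adjusted p = 0.163, 0.0600 and 0.0917) and with DESeq2, at 0.44 (adjusted p = 0.0750). XAF1, which opposes the apoptosis inhibitor XIAP, rose by 0.91 and 0.68, and LGALS3BP, a secreted glycoprotein, by 0.44 and 0.28. EPSTI1 was -0.06 with shAHR#2 (not called) and rose by 0.92 with shAHR#3, 0.98 apart in the direct test (adjusted p = 9.38e-05). The direct difference of XAF1 (-0.24, adjusted p = 0.0117), whose hairpin groups overlapped, was lost without shAHR#2 replicate 1, shAHR#2 replicate 3 or shAHR#3 replicate 3 (-0.22, -0.19 and -0.19, at adjusted p = 0.0528, 0.0780 and 0.0660). CMTR1, which methylates the cap of messenger RNA, fell with each hairpin (-0.65 and -0.38).

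DDX60, a helicase that aids RNA sensing, and LY6E, a lipid-anchored surface protein, fell with shAHR#2 (-0.40 and -0.54) and rose with shAHR#3 (0.24 and 0.40). PLSCR1, a membrane scramblase, rose by 0.16 and 0.20. With shAHR#2 its call was lost without PLKO-GFP replicate 1, PLKO-GFP replicate 3 or shAHR#2 replicate 2 (0.16, 0.14 and 0.11, at adjusted p = 0.0658, 0.118 and 0.180), with DESeq2, at 0.17 (adjusted p = 0.0510), and with no filter on low counts, at 0.16 (adjusted p = 0.0630). With shAHR#3 it was lost without PLKO-GFP replicate 3 (0.17, at adjusted p = 0.0556). RNF213, a very large ubiquitin ligase, rose by 0.16 with shAHR#2, a value that was 0.10 without PLKO-GFP replicate 2 (adjusted p = 0.0203), and was 0.09 with shAHR#3 (adjusted p = 0.0588, not called). It was called with shAHR#3 without PLKO-GFP replicate 1, PLKO-GFP replicate 3 or shAHR#3 replicate 3 (0.13, 0.12 and 0.13, at adjusted p = 0.0120, 0.0321 and 0.00467). The same call was gained with the replicate block, at 0.09 (adjusted p = 0.0334), with no filter on low counts, at 0.09 (adjusted p = 0.0238), and with a mean of at least 50 counts, at 0.09 (adjusted p = 0.0461). Against shAHR#2 it was called lower without shAHR#3 replicate 1 (-0.12, at adjusted p = 0.0299).

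TDRD7, a tudor protein that restricts autophagy-dependent viral replication, was -0.15 with shAHR#2, called lower, and 0.02 with shAHR#3, not called. The former call was lost without PLKO-GFP replicate 1, PLKO-GFP replicate 2 or shAHR#2 replicate 1 (-0.15, -0.14 and -0.09, at adjusted p = 0.0572, 0.0781 and 0.232), and with DESeq2, at -0.14 (adjusted p = 0.0668). Its direct difference of 0.16 (adjusted p = 0.0233) was lost without shAHR#2 replicate 1 or shAHR#3 replicate 2 (0.10 and 0.14, at adjusted p = 0.217 and 0.0993) and with DESeq2, at 0.16 (adjusted p = 0.0597). RTP4, a chaperone of receptors, had 16, 1 and 9 reads in PLKO-GFP, 17, 14 and 12 in shAHR#2 and 20, 14 and 13 in shAHR#3, and was called with neither hairpin (0.91 and 0.79). Without PLKO-GFP replicate 1 it was called higher with each, at 1.74 and 1.63 (adjusted p = 0.00633 and 0.0127). Without PLKO-GFP replicate 2, which had 1 read, RTP4 was 0.36 with shAHR#2 and 0.24 with shAHR#3, not called, so its value rests on which control library is kept. RSAD2 (viperin), which makes a chain-ending nucleotide, had 7, 8 and 1 reads in PLKO-GFP, 8, 4 and 1 in shAHR#2 and 11, 7 and 8 in shAHR#3. Its neighbour CMPK2, a mitochondrial nucleotide kinase, had 1, 2 and 2, then 0, 0 and 0, then 1, 0 and 0. Neither was tested. For CMPK2, a count of 0 allows up to 3 counts, or 0.146 to 0.193 CPM in these libraries, by counting error only.

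**Figure D3:**
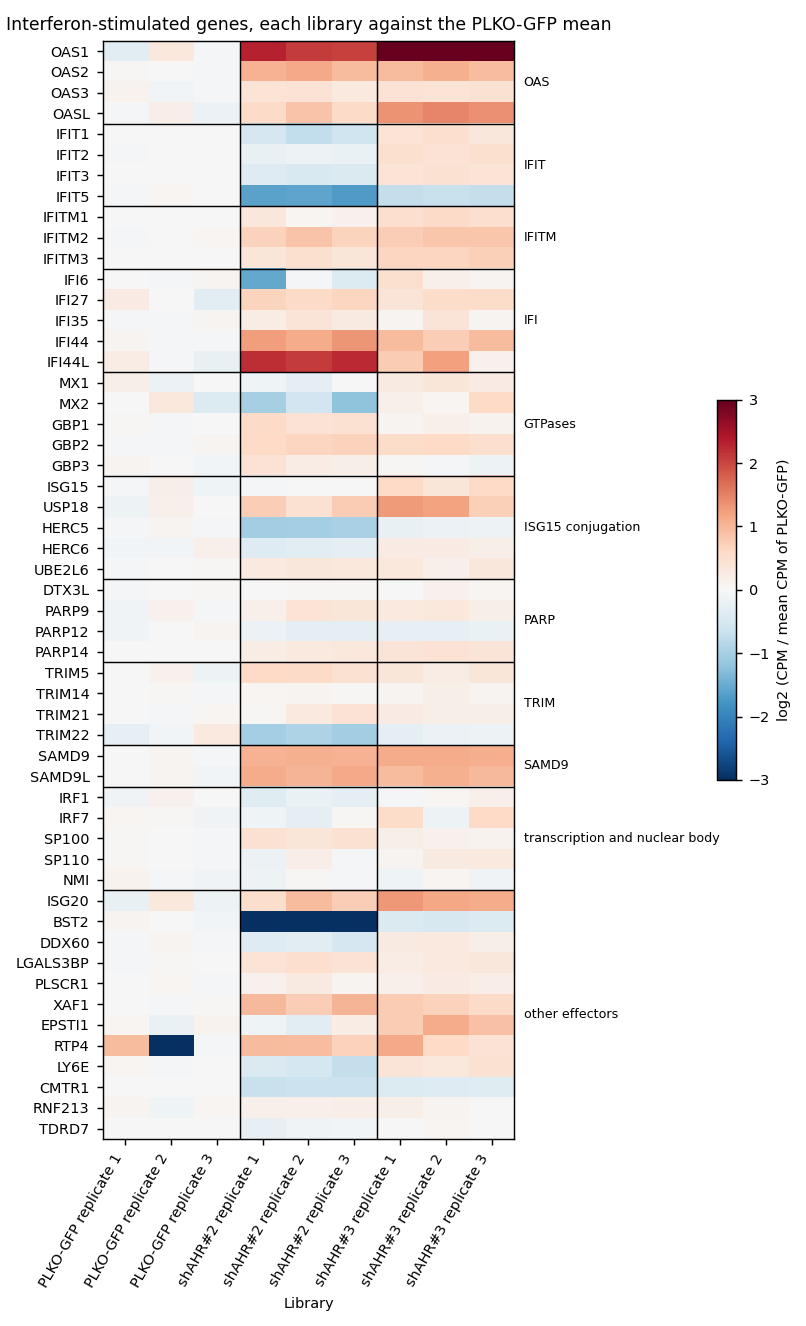
Level of each of the 53 members tested (vertical axis, by family) in each of the 9 libraries (horizontal axis), as log2 of its CPM over the mean CPM of PLKO-GFP, with the colour scale ending at 3 in either direction. Libraries of a group look alike for most members, OAS1 is darkest red in shAHR#3 and BST2 darkest blue in shAHR#2, while RTP4 and IFI6, with few reads, vary within a group.

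Levels were compared between members per kilobase of exon in GENCODE 44. In PLKO-GFP they ran from 0.0196 to 93.4 CPM per kb with a median of 4.36, and 43 of 55 members were above 1 CPM per kb. The median was 4.97 in shAHR#2 and 5.44 in shAHR#3, with 42 and 44 members above 1. LGALS3BP led in PLKO-GFP at 93.4 ± 1.78 CPM per kb (SD, n = 3), followed by IFITM3 at 34.0 ± 0.381 and BST2 at 31.1 ± 1.76. BST2 went from rank 3 in the controls to rank 35 in shAHR#2, at 3.21 ± 0.583 CPM per kb, and was at rank 5 in shAHR#3. Per kb, OAS1 had the lowest level of the members tested in the controls, 0.0768 ± 0.0178 CPM per kb. OAS1 reached 0.342 ± 0.0330 in shAHR#2 and 0.780 ± 0.0122 in shAHR#3, ranks 51 and 46 of 55. IFI44L was next lowest per kb at 0.0965 ± 0.0146, and the ranges of mean ± SD of OAS1, IFI44L and MX2 (0.111 ± 0.0269) overlap. This order depends on the exon length used, 13021 bases for OAS1, and the length of the transcripts present was not measured. In CPM without division by length, the PLKO-GFP mean of RTP4 was below that of OAS1. The largest rise was of IFI44L with shAHR#2 and of OAS1 with shAHR#3. Each had few reads in PLKO-GFP, 23, 22 and 19 for IFI44L and 14, 25 and 19 for OAS1.

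**Figure D4:**
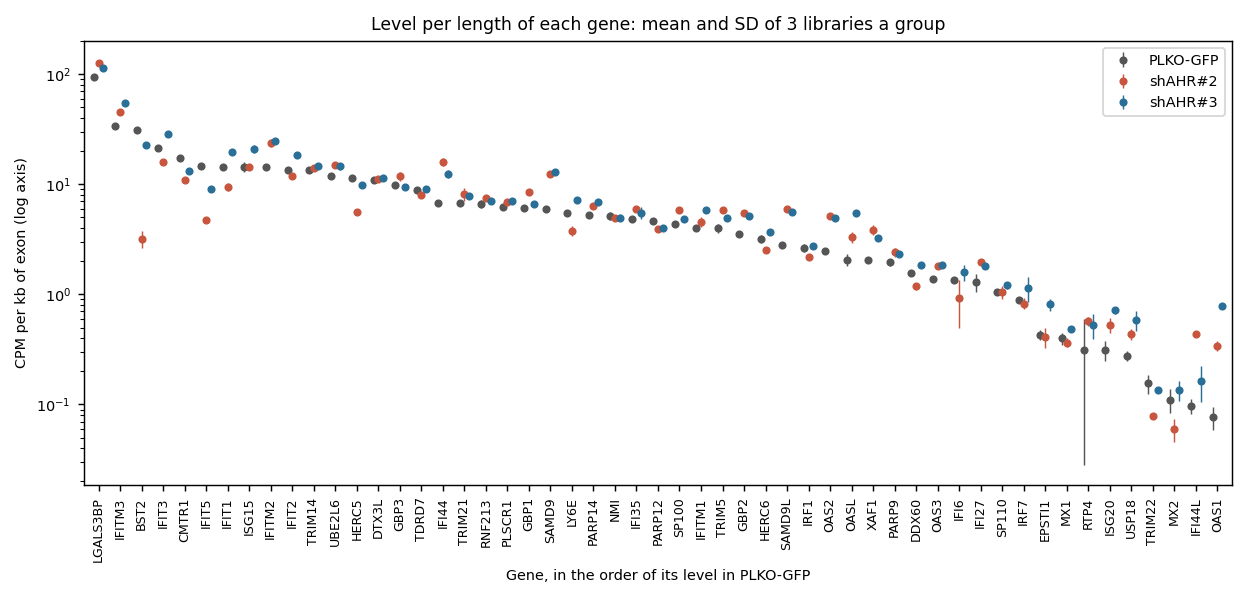
Level of each of the 53 members tested in CPM per kb of exon (vertical log axis), in the order of the PLKO-GFP level, with points for the mean and bars for the SD of 3 libraries in PLKO-GFP (grey), shAHR#2 (red) and shAHR#3 (blue). Most points of a member lie close together, BST2 stands out in shAHR#2 at 3.21 ± 0.583 CPM per kb, and OAS1, at the far right, lies at 0.0768 ± 0.0178 in PLKO-GFP.

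IFIT1, IFIT2, IFIT3, HERC6, DDX60 and LY6E were called lower with shAHR#2 and higher with shAHR#3, comparisons that share the PLKO-GFP libraries. BST2, IFIT5, HERC5, CMTR1 and PARP12 were lower with each. Whether either pattern is more frequent among the members than among all genes tested was not tested. In the direct comparison 24 members were higher with shAHR#3, with the IFIT family (4 of 4, median 0.89) and the ISG15 group (3 of 5, median 0.54) in front. The 8 that were lower with shAHR#3 were IFI44L, IFI44, GBP1, GBP3, SP100, TRIM5, XAF1 and LGALS3BP, with values from -1.42 for IFI44L to -0.16 for LGALS3BP. A member called with 1 hairpin and not with the other, such as GBP1 or EPSTI1, is said to differ between them only by this direct test.

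Many members lie side by side in the genome, and their regions did not all stand at 0. IFIT2, IFIT3, IFIT1 and IFIT5 lie together on chromosome 10, where the 12 other tested genes within 1 Mb of IFIT1 had median log2 fold changes of -0.52 and -0.46 with shAHR#2 and shAHR#3, and all tested genes of the chromosome -0.32 and -0.15. IFIT1, IFIT2 and IFIT3 thus rose with shAHR#3 within a region whose other genes had a median below 0, while with shAHR#2 4, 11 and 7 of those 12 neighbours changed at least as far as IFIT1, IFIT2 and IFIT3. OAS1, OAS2 and OAS3 adjoin on chromosome 12, where 15 neighbours of OAS1 had 0.23 and 0.15 and the chromosome 0.22 and 0.17. None of these neighbours changed as far as OAS1 with shAHR#2, and 4 changed as far as OAS3. HERC5 and HERC6 are adjacent on chromosome 4, which had -0.30 and -0.23 over all its tested genes, but the 10 neighbours of HERC5 had 0.49 and 0.16 and the 12 of HERC6 0.15 and 0.02. Also adjacent are IFI44L and IFI44 on chromosome 1 (7 neighbours, 0.07 and -0.10) and SAMD9 and SAMD9L on chromosome 7 (15 neighbours of SAMD9, 0.22 and 0.05). MX2 and MX1 adjoin on chromosome 21, where the 11 neighbours of MX1 had 0.36 and 1.69 and the 9 of MX2 0.22 and 0.39, so that the rise of MX1 with shAHR#3, 0.29, was below the median of its neighbours. Chromosome 5, which holds IRF1, had medians of -0.48 and -0.26, the lowest with shAHR#2 of the 23 chromosomes with a median. The part of such differences between regions in the values of the members was not tested.

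Some members share exons with other annotated genes, and whether the counting used strand is not given in the sources used here, although the library kit keeps it. By GENCODE 44, 38.3% of the exon length of XAF1 lies opposite another gene, as does 22.9% for IRF1, 19.4% for SP110 and 16.3% for IFITM3. On the same strand the overlap is 23.1% for IFI6, 21.1% for IFITM1 and 12.1% for IFIT2. Values of these members are therefore uncertain, but these are shares of exon length and not of reads, so they do not give by how much. BST2, IFI44L, IFIT1, IFIT5, SAMD9 and OAS2 share none, and OAS1 shares 1.70% on the opposite strand.

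Genes that make, sense or relay interferon were read beside the members. IFNB1, an early interferon of epithelial cells, had 0 reads in every library, as had IFNE, IFNK, IFNL2 and IFNL3, and IFNL1 had 1 read in all. STAT2 fell slightly with shAHR#2 (-0.11, adjusted p = 0.0326) and rose with shAHR#3 (0.21, adjusted p = 4.63e-05). Its shAHR#2 call was lost without PLKO-GFP replicate 1, PLKO-GFP replicate 3, shAHR#2 replicate 1 or shAHR#2 replicate 3 (-0.09, -0.09, -0.08 and -0.11, at adjusted p = 0.0994, 0.104, 0.174 and 0.0557), with DESeq2, at -0.10 (adjusted p = 0.0815), and with no filter on low counts, at -0.11 (adjusted p = 0.0511). The row of IRF9 held 0, 0 and 0 reads in PLKO-GFP, 8, 0 and 2 in shAHR#2 and 1, 0 and 3 in shAHR#3, but 23.9% of its exon length is shared with another gene on the same strand, so its level is uncertain.

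Among the other upstream genes, SOCS1, an inhibitor of JAK kinases, had the largest changes (-1.91 and -1.17) on 14, 37 and 28 reads in PLKO-GFP, 7, 8 and 3 in shAHR#2 and 14, 10 and 12 in shAHR#3, and its shAHR#3 call was lost without PLKO-GFP replicate 2 (-0.88, at adjusted p = 0.0693). SOCS3, of the same family, rose by 0.71 and 0.73, STING1, the adaptor of DNA sensing, by 0.84 and 0.98, and IFNLR1, a chain of the type III interferon receptor, by 0.55 and 0.67. TBK1, the kinase downstream of STING1, fell with each hairpin (-0.66 and -0.20). IFIH1, an RNA sensor that is itself induced by interferon, fell with shAHR#2 and rose with shAHR#3 (-0.56 and 0.41, direct difference 0.97), the same order as IFIT1, IFIT3 and DDX60.

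The labelled cell type was checked against its markers, and other cell types against theirs. VIM, CD44, AXL, KRT8 and KRT18, present in this line, summed to 5228, 5317 and 5208 CPM in PLKO-GFP, 6526, 6659.7 and 6504 CPM in shAHR#2 and 5864, 5899 and 5992 CPM in shAHR#3, with VIM the most abundant. They did not move together. VIM rose with each hairpin (0.56 and 0.34) and CD44 fell with each (-0.23 and -0.49). AXL was called higher with shAHR#2 only (0.21), and KRT8 and KRT18 with shAHR#3 only (0.40 and 0.31). PGR had 0 reads and ESR1 at most 4 in any library, and EPCAM and CDH1 were low, although CDH1 rose with each hairpin (0.997 and 2.19), while ERBB2 had 1063, 1283 and 1246 reads in the controls. These 5 genes summed to 67.5, 71.5 and 70.8 CPM in PLKO-GFP, 71.5, 70.1 and 70.6 CPM in shAHR#2 and 80.0, 80.6 and 86.2 CPM in shAHR#3, with ERBB2 the most abundant. Of 4 leukocyte markers, CD3E was at 0 throughout, ITGAM had at most 1 read, CD14 fell with shAHR#2 (-1.40), and PTPRC rose from 1, 4 and 2 reads to 33, 23 and 14 and 16, 14 and 30. Their sum was 1.02, 1.05 and 1.16 CPM in PLKO-GFP, 2.25, 1.86 and 1.14 CPM in shAHR#2 and 1.29, 1.59 and 2.10 CPM in shAHR#3. Of 4 fibroblast markers, DCN and PDGFRA had at most 2 reads, COL1A1, the most abundant, rose (0.67 and 0.85) and COL1A2 fell (-2.05 and -2.51), with sums of 8.98, 6.64 and 8.71 CPM in PLKO-GFP, 10.99, 9.38 and 11.2 CPM in shAHR#2 and 11.01, 10.95 and 12.9 CPM in shAHR#3. Of 3 endothelial markers, PECAM1, the most abundant, rose (2.22 and 2.35), CDH5 and VWF had at most 12 reads, CDH5 and VWF being at 0 in the controls, and the sums were 2.71, 2.15 and 2.33 CPM in PLKO-GFP, 10.4, 12.7 and 11.7 CPM in shAHR#2 and 12.0, 13.1 and 13.3 CPM in shAHR#3. PTPRC, PECAM1 and COL1A1 rose with each hairpin as OAS1 did, and their part in the results was not tested.

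The members that mark the list disagreed among themselves, since with shAHR#2 OAS1 and IFI44L rose, ISG15 was not called and BST2 fell, and with shAHR#3 OAS1, IFI44L and ISG15 rose and BST2 fell. Their summed level was 50.5, 50.4 and 45.8 CPM in PLKO-GFP, 26.5, 25.2 and 24.9 CPM in shAHR#2 and 56.3, 53.8 and 56.1 CPM in shAHR#3, lowest in shAHR#2, where BST2, the most abundant of the 4 in the control, had fallen.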

How the data were processed

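RNA-seq of 9 MDA-MB-231 libraries was used. Per the labels, the authors checked reads with FastQC, aligned them to GRCh38.p13 with STAR and made the deposited gene counts with featureCounts of Subread, and the strand setting and annotation release of that counting are not given in the sources used here. From these raw counts, genes were kept by filterByExpr of edgeR 4.0.16 in R 4.3.3 (minimum count 10, minimum total 15), which left 14274 of 60649 genes holding 99.9% of the counts. Libraries were scaled by TMM, and 1 edgeR quasi-likelihood fit over the 9 libraries gave the 3 comparisons, with Benjamini-Hochberg adjustment over all genes tested and calls at adjusted p under 0.05. The code was tested on simulated data. CPM use TMM sizes, and levels per kb use exon lengths from GENCODE 44. Promoter windows are RefSeq's.

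Members named with values per library were, in each family, those with the largest rise and fall against PLKO-GFP by either hairpin that passed the threshold, the 4 with the largest direct differences each way, and the markers OAS1, BST2, IFI44L and ISG15. Upstream genes were the 6 called with the largest changes, with STAT2, IRF9 and IFNB1, and some genes of the lists are not reported here. Values per library of other genes, and the promoters shown, were chosen after the values were seen. All members and lists, with upstream genes and markers of other cell types, were chosen with earlier results of these data known. Alternatives were DESeq2 1.42.0, its size factors in edgeR, no filter, a mean count of at least 50, only the groups compared, replicate number as a block, a 2-fold rule, and leaving out each library in turn.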

Additional observations from a re-analysis of the deposited data

Results flagged for a closer look

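Each member below passed the threshold in opposite directions against PLKO-GFP, lower with shAHR#2 and higher with shAHR#3, and whether such genes are more frequent among the members than among all genes tested was not tested. The log2 differences of shAHR#3 against shAHR#2 were 1.03 for IFIT1, 0.66 for IFIT2, 0.84 for IFIT3, 0.55 for HERC6, 0.65 for DDX60 and 0.94 for LY6E. Since these genes were picked for their opposite directions, and all comparisons share libraries, the direct test is not separate evidence. The rise of HERC6 with shAHR#3 was not called without PLKO-GFP replicate 1 or PLKO-GFP replicate 2.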

How the results depend on the processing

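No called value changed direction, while some uncalled values near 0 changed sign (ISG15, shAHR#2 against PLKO-GFP, was 0.08 without PLKO-GFP replicate 2). With 1 library left out, 25 to 27 members were higher and 13 to 16 lower with shAHR#2, 30 to 34 higher and 5 lower with shAHR#3, and 19 to 24 higher and 7 to 9 lower with shAHR#3 against shAHR#2. Under DESeq2, its size factors, other filters, 2 groups or the replicate block the ranges were 25 to 27, 13 to 15, 32 to 34, 5, 19 to 24 and 7 to 8. The added 2-fold rule left 6, 3, 5, 0, 4 and 1, by construction. Libraries with the same replicate number correlated at 0.00314 to 0.0578 between groups. These values were low and all positive, and they cannot show whether such libraries shared a culture or a batch. The replicate block gave 27 and 15 members with shAHR#2, 34 and 5 with shAHR#3 and 24 and 8 directly, and 9406, 7844 and 6107 genes called, against 9390, 7771 and 6031. The direct AHR difference ran from 0.13 (without shAHR#3 replicate 2) to 0.24 (without shAHR#3 replicate 3), and the cause was not tested. With a library left out, single-gene values kept their side of the threshold in 1971 cases, lost the call in 66 and gained it in 15, whatever their size, and under other settings in 1314, 17 and 4. Depth limits RSAD2, CMPK2, RTP4, IFI6, MX2 and USP18.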
